A study of Arabidopsis thaliana with 6 samples.

Results

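The IQD, TRM and NET genes of Arabidopsis thaliana encode proteins that bind or organise the cytoskeleton. They were chosen by name: every probe set that names 1 gene was taken where the symbol is IQD, in either case, TRM or NET followed by a digit. This gave 40 probe sets for 40 genes, 1 probe set per gene, among 13350 genes named by 1 probe set. The 40 comprised 15 IQD genes (iqd15, IQD16, IQD18, IQD19, iqd21, IQD22, IQD23, IQD24, IQD26, IQD27, IQD28, IQD30, IQD31, iqd32 and iqd33, spelled as annotated). A further 14 were TRM genes (TRM15, TRM18 to TRM26 without a gap, TRM28, TRM31, TRM33 and TRM34), and 10 were NET genes (NET1A to NET1D, NET2C, NET2D, NET3A to NET3C and NET4B). The last, TRM82 (AT1G03110), is annotated as a tRNA modification gene and not as a TON1-recruiting protein, so it was counted apart, and all counts below are over the other 39 genes. The RefSeq gene table holds 33 IQD, 29 TON1-recruiting TRM and 12 NET symbols, so the measured genes are a part of each family.

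The arrays held RNA of Col-0 seedlings, all raised on diluted MS medium and collected at 7 days. The dark group grew in darkness with no further treatment, the H2O2 group grew in darkness with 5 mM hydrogen peroxide, and the light group grew in light for 16 h and in darkness for 8 h of each day. Each group had 2 biological replicates, each on 1 Affymetrix ATH1 array. All 3 groups are of 1 wild-type ecotype, and the labels give the seedling as the tissue, so a smaller share of a cell type and less RNA per cell cannot be told apart in any value below.

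IQD proteins carry an IQ67 domain that binds calmodulin, the calcium sensor, and many of them sit on microtubules, where they act as scaffolds between calcium signals and the cell's shape. TRM proteins share short motifs through which they bring TON1, and with it a protein phosphatase complex, to cortical microtubules and to the preprophase band that marks the plane of division. NET proteins bind actin filaments through a NET actin-binding domain and tie them to membranes. In seedlings the cortical microtubules and actin filaments take part in the elongation of the hypocotyl in darkness and in its arrest in light.

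Levels are log2 values of the authors' table, and adding 1 means doubling the signal. A gene is called in a comparison when limma's Benjamini-Hochberg adjusted p over all 22746 probe sets is under 0.05, and the words higher, lower, rose and fell are kept for called genes. A group's mean level under 5.16 is called dim, since 40% of the probe sets have a mean over the 6 arrays below that value, and differences that involve a dim level are uncertain in size. Of the 39 genes 14 were dim in all 3 groups and 15 in none. Replicate arrays correlated at r = 0.993 to 0.995 over all probe sets. The mean difference between 3-prime and 5-prime signals of 6 pairs of plant control probe sets was 1.52 and 1.75 on the dark arrays, 1.56 and 1.73 with H2O2, and 1.33 and 1.58 in light.

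**Figure D1:**
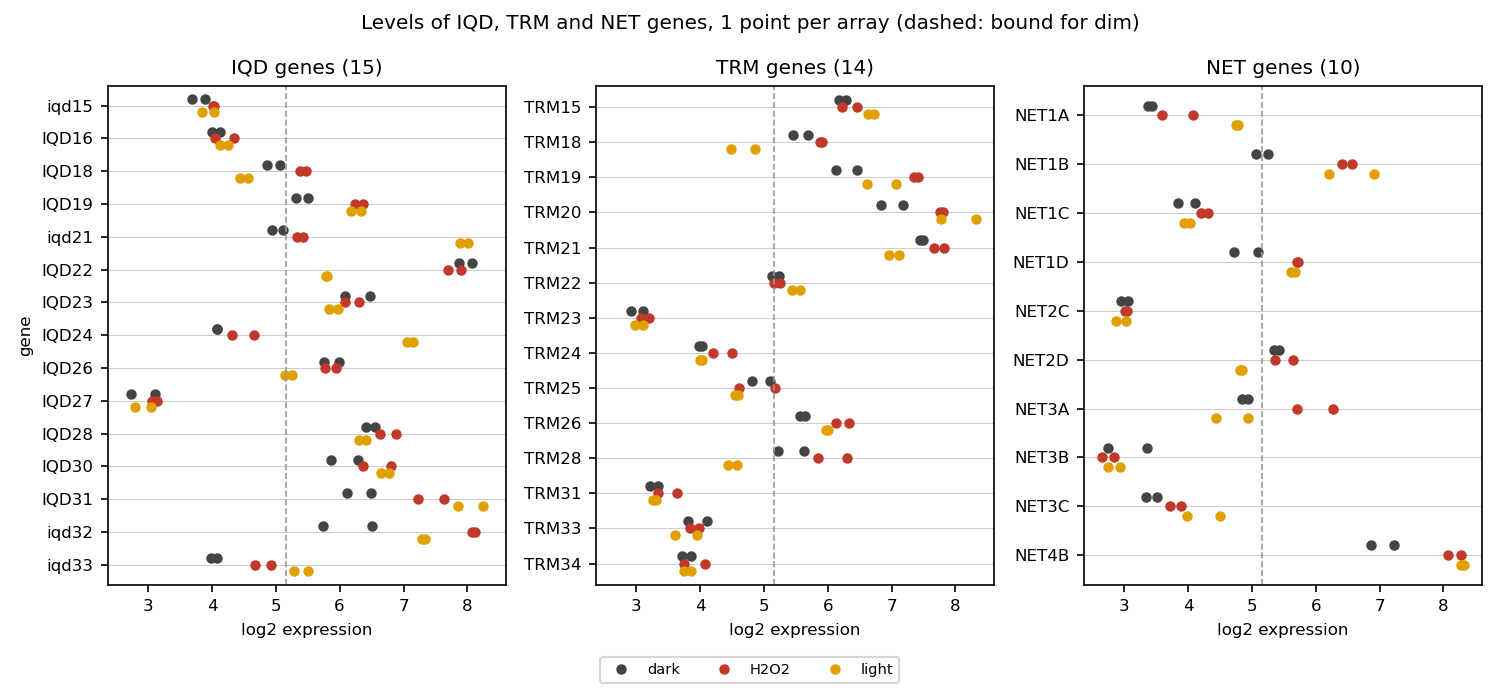
Log2 expression of the 15 IQD, 14 TRM and 10 NET genes on each of the 6 arrays, with 1 point per array coloured by group (dark, H2O2, light) and a dashed line at 5.16, under which a level is called dim. The light points of IQD24 and iqd21 stand to the right of all their other points, and those of IQD22 stand to the left.

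The comparison of H2O2 with dark asks what added peroxide does to these genes without light. With H2O2 13 of the 39 genes were higher and 0 were lower, or 33.3% higher. Over all probe sets 20.5% were called, 12.3% higher and 8.18% lower. At an unadjusted p under 0.05, 18 of the 39 were above dark and 0 below, beside 18% and 15.4% of all probe sets. The rises were found in each family: iqd32, IQD31, IQD19, iqd33 and IQD18 of 15 IQD genes, TRM19, TRM20, TRM28 and TRM26 of 14 TRM genes, and NET1B, NET4B, NET3A and NET1D of 10 NET genes. The median difference was 0.35 for IQD, 0.24 for TRM and 0.40 for NET genes, against -0.02 over all probe sets. Over the 14 alternative settings these medians ranged from 0.23 to 1.13 for IQD, 0.12 to 1.02 for TRM and 0.28 to 1.18 for NET genes. The low ends came with the arrays centred on their medians, where the median over all probe sets was -0.14. The high ends came with centring on hybridisation control probe sets, where it was 0.76, so these ends hold a shift of all probe sets. Fewer of the 39 genes were called higher when any 1 dark or H2O2 array was left out, and so were fewer of all probe sets. IQD19, iqd32, NET1B, NET4B and TRM19 were called under every alternative run.

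The comparison of light with dark asks how these genes differ between light-grown and etiolated seedlings. In light 16 of the 39 genes were higher and 7 lower, or 41% and 17.9%. Of all probe sets 48.0% were called, 23.0% higher and 25.0% lower. Of the IQD genes 7 were higher and 3 lower, of the TRM genes 4 and 3, and of the NET genes 5 and 1. The median difference was 0.38 for NET genes. For IQD genes it was 0.15, or 0.06 without dark replicate 1, 0.26 without dark replicate 2, 0.25 without light replicate 1 and 0.04 with the arrays centred on their medians. For TRM genes it was 0.02, between 0.0084, without dark replicate 1, and 0.036, without dark replicate 2, when 1 array was left out. The TRM median turned to -0.09 with the arrays centred on their medians and to -0.01 with the gene span trend removed. The median over all probe sets was -0.06. With the arrays centred on the bacterial hybridisation controls, which moved the median of all probe sets against dark by 0.69 in light and by 0.78 with H2O2, 14 of the 39 were higher and 1 was lower in light, or 35.9% and 2.56%, beside 20.4% and 2.72% of all probe sets. The medians of these controls were 9.47 and 10.13 on the dark arrays, 9.08 and 8.96 with H2O2, and 8.68 and 9.54 in light. Centring on them therefore also moved replicates of a group against each other, most in dark and light. Both comparisons use the same 2 dark arrays, so their values are given side by side and no count of shared genes is read as evidence. Of the 13 genes higher with H2O2, 10 were also higher in light, IQD18 and TRM28 were lower, and NET3A was not called.

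**Figure D2:**
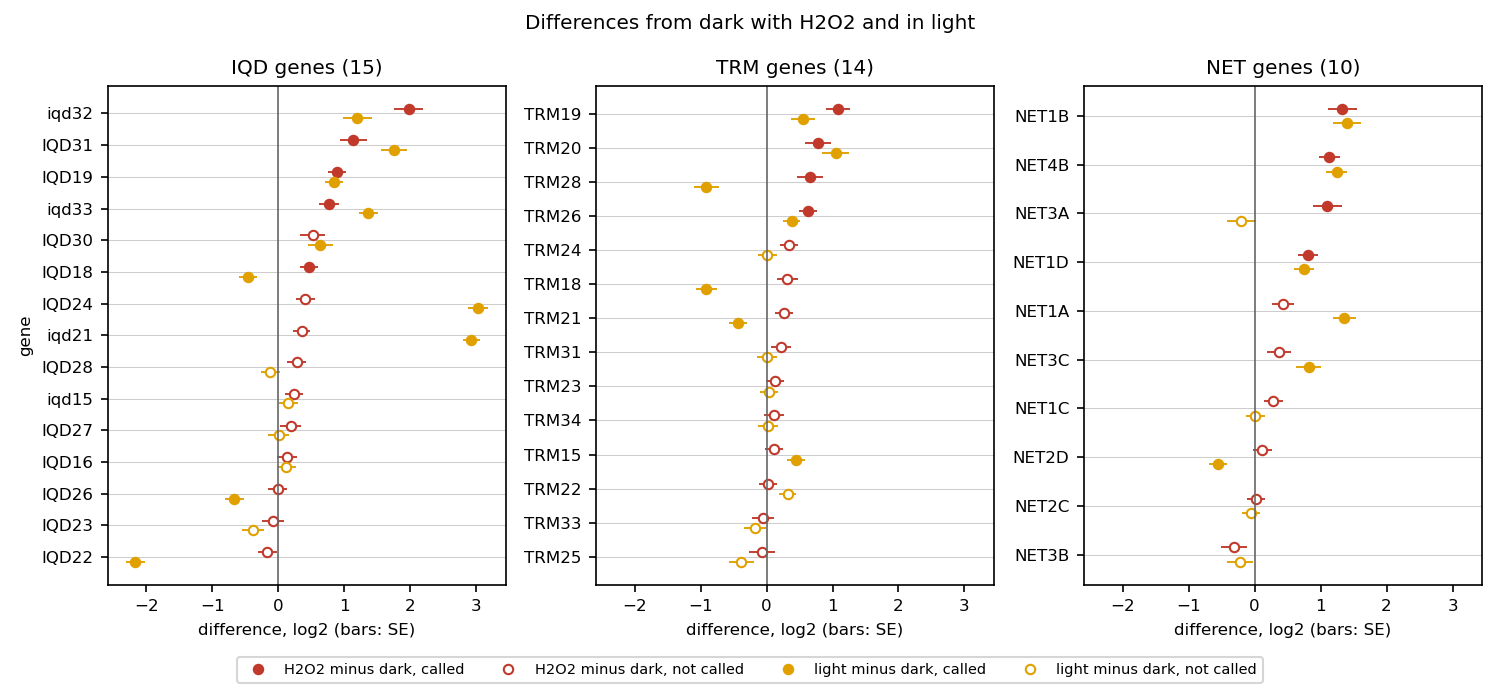
Log2 differences from dark with H2O2 (red) and in light (yellow) for the 15 IQD, 14 TRM and 10 NET genes, with bars of 1 standard error. Filled points are called, and each family is ordered by its difference with H2O2. No filled red point lies left of 0, and filled yellow points lie on both sides, where those of IQD18, IQD26, NET2D and TRM21 turn sign with centring on the hybridisation controls.

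**Figure D3:**
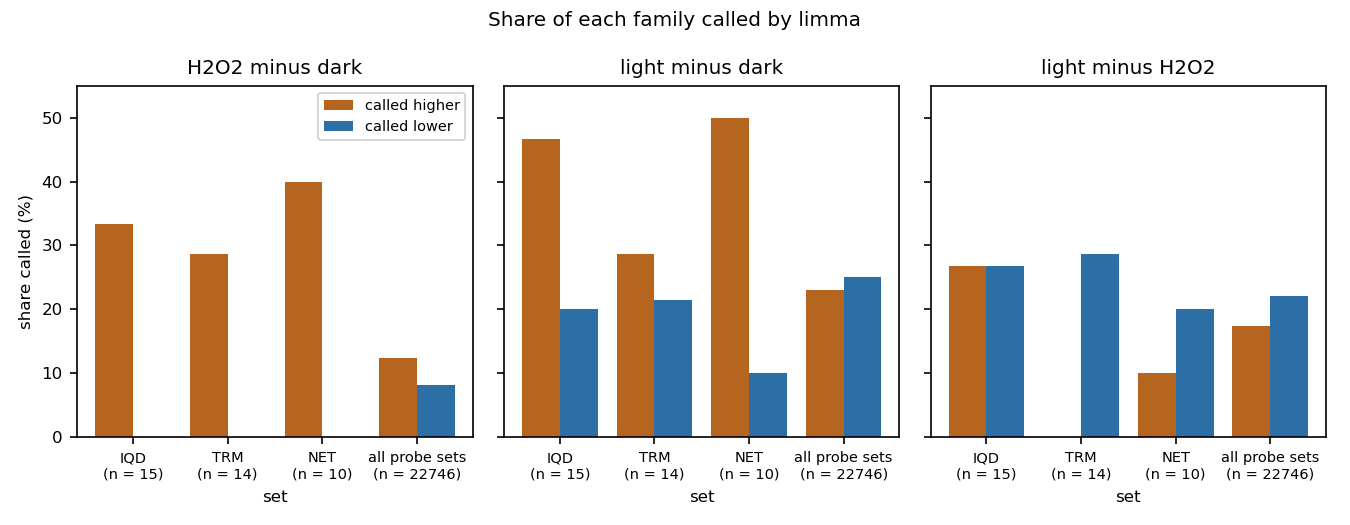
Percent of each family and of all 22746 probe sets called higher or lower by limma in the 3 comparisons. With H2O2 the 3 families have no bar for lower, beside 8.18% of all probe sets. The families have 15, 14 and 10 genes, so a share of that size is few genes in each.

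Among the IQD genes, iqd32 (AT1G19870) had the largest difference with H2O2. Its log2 levels were 6.50 and 5.74 on the dark arrays, 8.11 and 8.07 with H2O2, and 7.33 and 7.30 in light. All 3 groups stood apart, with H2O2 on top and the dark arrays spread most. It rose by 1.97 ± 0.22 with H2O2 (± SE from the limma fit on 2 arrays a group, adjusted p = 0.000698), which is 3.92-fold, and by 1.19 ± 0.22 in light (0.00163). IQD31 (AT1G74690) had 6.48 and 6.11 in the dark, 7.63 and 7.23 with H2O2, and 7.85 and 8.24 in light. Here the order of the groups was dark, H2O2, light, with no overlap. IQD31 rose by 1.13 ± 0.20 with H2O2 (adjusted p = 0.00551) and by 1.75 ± 0.20 in light (9.31e-05). IQD19 (AT4G14750) had 5.32 and 5.51 in the dark, 6.24 and 6.36 with H2O2, and 6.33 and 6.18 in light. The H2O2 and light arrays overlapped, and both lay above dark. IQD19 rose by 0.89 ± 0.14 (adjusted p = 0.00308) and 0.84 ± 0.14 (0.000856). For iqd33 (AT5G35670) the levels were 3.99 and 4.07 in the dark, 4.67 and 4.93 with H2O2, and 5.50 and 5.28 in light. It stepped up through the 3 groups from a dim level, by 0.77 ± 0.15 with H2O2 (adjusted p = 0.00776) and by 1.36 ± 0.15 in light (6.39e-05). The call of IQD31 with H2O2 ended without H2O2 replicate 1 (adjusted p = 0.0571) and that of iqd33 without H2O2 replicate 2 (0.068).

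IQD24, iqd21 and IQD22 differed in light by more than any other gene of the 3 families and were not called with H2O2. IQD24 (AT5G07240) had 4.07 and 4.08 in the dark, 4.66 and 4.32 with H2O2, and 7.15 and 7.05 in light. The 2 light arrays stood far above the other 4, and dark and H2O2 are both dim. It rose by 3.02 ± 0.15 in light, or 8.13-fold (adjusted p = 6.48e-07), and its difference with H2O2 was 0.41 ± 0.15 (0.089). The levels of iqd21 (AT3G49260) were 5.11 and 4.95 in the dark, 5.43 and 5.32 with H2O2, and 7.89 and 8.01 in light. It showed the same order from a dim dark level, with a rise of 2.92 ± 0.13 in light, or 7.59-fold (adjusted p = 4.37e-07), and a difference of 0.35 ± 0.13 with H2O2 (0.104). IQD22 (AT4G23060) went the other way, with 7.87 and 8.07 in the dark, 7.90 and 7.70 with H2O2, and 5.79 and 5.81 in light. Its dark and H2O2 arrays overlapped and its light arrays lay below them. It fell by 2.17 ± 0.14 in light on the log2 scale, or 4.49-fold (adjusted p = 2.7e-06), while its difference with H2O2 was -0.17 ± 0.14, with a 95% interval of -0.49 to 0.15. These 3 light calls held under every alternative run. IQD22, IQD23 and IQD24 carry consecutive numbers, and IQD23 (AT5G62070) was not called in any comparison, with -0.09 ± 0.17 with H2O2 and -0.38 ± 0.17 in light (adjusted p = 0.0907). IQD23 passed the threshold in light under 4 alternatives, with adjusted p from 0.0348, without dark replicate 1, to 0.0408, with the gene span trend removed.

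IQD18 (AT1G01110) was called in opposite directions. Its levels were 4.86 and 5.07 in the dark, 5.38 and 5.47 with H2O2, and 4.44 and 4.56 in light, dim in dark and light. The groups did not overlap, and dark lay between the others. It was higher by 0.46 ± 0.14 with H2O2 (adjusted p = 0.0462) and lower in light at -0.46 ± 0.14 (0.0213), a direction that became 0.23 once the arrays were centred on the hybridisation controls. The call with H2O2 ended under 12 of 13 alternatives, each array left out among them (adjusted p 0.0505 to 0.209). The light call ended without dark replicate 2 (0.135), without light replicate 1 (0.0993) and with an intensity trend in the fit (0.0529). IQD26 (AT3G16490) had 5.76 and 5.98 in the dark, 5.77 and 5.95 with H2O2, and 5.15 and 5.25 in light. Its dark and H2O2 arrays interleaved, and light lay below. The difference in light was -0.67 ± 0.14 (adjusted p = 0.00369), or 0.02 once the arrays were centred on the hybridisation controls, a change of sign, and with H2O2 it was -0.01 ± 0.14. IQD30 (AT1G18840) was higher in light by 0.64 ± 0.19 (adjusted p = 0.0217), and its difference with H2O2 was 0.52 ± 0.19 (0.0928). The light call ended without dark replicate 2 (0.155), without light replicate 2 (0.0904) and with the gene span trend removed (0.052). IQD16, known as a microtubule-associated protein that affects leaf shape, was dim in all groups, at 0.13 ± 0.15 with H2O2 and 0.12 ± 0.15 in light. IQD27 had 2.74 and 3.10 in the dark, 3.15 and 3.06 with H2O2, and 2.79 and 3.04 in light, dim throughout, with the dark arrays overlapping both other groups.

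Of the TRM genes, TRM19 (AT3G53540) rose most with H2O2. It had 6.13 and 6.46 in the dark, 7.35 and 7.41 with H2O2, and 6.62 and 7.07 in light. The H2O2 arrays lay on top and light lay between. The rise with H2O2 was 1.08 ± 0.18 (adjusted p = 0.004), or 2.12-fold. In light it was 0.55 ± 0.18 (0.0316), a call that ended under 8 of 14 alternatives, among them without dark replicate 1 (0.186), either H2O2 replicate (0.057) or light replicate 2 (0.199). TRM20 (AT4G28760) had 7.17 and 6.83 in the dark, 7.76 and 7.81 with H2O2, and 7.77 and 8.32 in light. Both other groups lay above dark and overlapped each other. It rose by 0.78 ± 0.20 with H2O2 (adjusted p = 0.0242) and by 1.05 ± 0.20 in light (0.00189). TRM26 (AT2G17550) was higher with H2O2 by 0.63 ± 0.13 (adjusted p = 0.0117) and in light by 0.38 ± 0.13 (0.0414). The H2O2 call of TRM20 ended without dark replicate 2 (0.149) and without H2O2 replicate 1 or 2 (0.108 and 0.129), and that of TRM26 without dark replicate 2 (0.0694) and without H2O2 replicate 1 (0.0846). The light call of TRM26 ended under 9 of 14 alternatives (0.0849 to 0.152), among them each of the 4 dark and light arrays left out and all 3 other scalings.

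TRM28 (AT5G03670) was called in opposite directions, like IQD18. Its levels were 5.62 and 5.22 in the dark, 5.85 and 6.30 with H2O2, and 4.58 and 4.44 in light. The 3 groups were separate, with H2O2 highest and light lowest and dim. It was higher with H2O2 by 0.66 ± 0.19 (adjusted p = 0.0422) and fell by 0.91 ± 0.19 in light on the log2 scale (0.00363), a call that ended with centring on the hybridisation controls (0.735). The H2O2 call ended without dark replicate 2 (0.241), without H2O2 replicate 2 (0.258) and under 5 other settings (0.054 to 0.0927), the replicate block among them (0.0564). TRM18 (AT2G39435) had 5.70 and 5.46 in the dark, 5.88 and 5.91 with H2O2, and 4.86 and 4.48 in light. Light lay below both other groups, and the fall was 0.91 ± 0.16 on the log2 scale, a fall that was not called with centring on the hybridisation controls (adjusted p = 0.00135 and 0.733). With H2O2 the difference was 0.32 ± 0.16 (0.215). TRM21 (AT5G43880) had 7.49 and 7.45 in the dark, 7.82 and 7.66 with H2O2, and 6.96 and 7.12 in light. Light was again lowest, at -0.43 ± 0.13 against dark (adjusted p = 0.0255), and this became 0.26 once the arrays were centred on the hybridisation controls. That call also ended without dark replicate 1 or 2 (0.0973 and 0.0723) and without light replicate 1 (0.127). TRM15 (AT4G00440) was higher in light by 0.45 ± 0.14 (adjusted p = 0.025), a call that ended under 8 of 14 alternatives (0.0502 to 0.117), among them each of the 4 dark and light arrays left out and all 3 other scalings.

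The TRM genes not called in any comparison were TRM22, TRM23, TRM24, TRM25, TRM31, TRM33 and TRM34. TRM23 had 2.92 and 3.10 in the dark, 3.20 and 3.08 with H2O2, and 2.98 and 3.11 in light. Its groups overlapped, and all these genes but TRM22 were dim in every group. Over the 3 families 15 genes were called in no comparison, 12 of them dim in every group, with differences between -0.41 and 0.34. The 3 that were not dim in any group were IQD23, IQD28 and TRM22. For TRM82, the tRNA modification gene that shares the letters, the differences were -0.05 ± 0.14 with H2O2 and -0.05 ± 0.14 in light, with adjusted p of 0.859 and 0.811.

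NET genes with a rise with H2O2 came from 3 of the 4 numbered groups of the family. NET1B (AT4G14760) had 5.26 and 5.06 in the dark, 6.56 and 6.42 with H2O2, and 6.91 and 6.21 in light. The H2O2 arrays lay within the range of the light arrays, and both groups lay above a dim dark level. It rose by 1.33 ± 0.22 with H2O2 (adjusted p = 0.00358) and by 1.40 ± 0.22 in light (0.000553). NET1B lies next to IQD19 in the gene order of the TAIR10.1 assembly, with 0 genes between them, and both were called higher in both comparisons. NET4B (AT2G30500), which with NET4A links actin to the vacuole, had 7.23 and 6.87 in the dark, 8.28 and 8.07 with H2O2, and 8.27 and 8.32 in light. Both other groups lay above dark and overlapped. NET4B rose by 1.13 ± 0.16 with H2O2 (adjusted p = 0.00184) and by 1.25 ± 0.16 in light (0.000163). NET1D (AT1G03080) had 5.09 and 4.71 in the dark, 5.72 and 5.70 with H2O2, and 5.68 and 5.61 in light. It also rose in both, by 0.81 ± 0.15 (adjusted p = 0.00729) and 0.74 ± 0.15 (0.00309), from a dim level. The H2O2 call of NET1D ended without dark replicate 2 (0.0513) and without H2O2 replicate 1 or 2 (0.0554 and 0.052).

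NET3A (AT1G03470), whose protein is found at the nuclear envelope, was the member of the 13 that was called with H2O2 and not in light. It had 4.93 and 4.85 in the dark, 5.71 and 6.27 with H2O2, and 4.94 and 4.44 in light. Only the H2O2 arrays lay above the dim bound. The rise was 1.10 ± 0.22 with H2O2 (adjusted p = 0.00862), and the call ended without dark replicate 2 (0.0545) and without H2O2 replicate 2 (0.0737). In light the difference was -0.20 ± 0.22, with a 95% interval of -0.69 to 0.30. NET1A (AT3G22790), the founding member, found at the plasma membrane and plasmodesmata of root cells, had 3.44 and 3.37 in the dark, 4.08 and 3.59 with H2O2, and 4.78 and 4.75 in light. The groups did not overlap but all were dim. It rose by 1.36 ± 0.17 in light (adjusted p = 0.000153), and with H2O2 its difference was 0.43 ± 0.17 (0.115), which passed the threshold without H2O2 replicate 2 (0.67, adjusted p = 0.0456). NET3C (AT2G47920), whose protein acts at contacts of the endoplasmic reticulum with the plasma membrane, was dim in all 3 groups, rose by 0.82 ± 0.18 in light (adjusted p = 0.00493), and with H2O2 its difference was 0.37 ± 0.18 (0.197). Against H2O2 it was called higher in light only without light replicate 2 (0.70, adjusted p = 0.0136). NET2D (AT2G22560) belongs to the group of NET2A, known from pollen tubes. Its levels were 5.35 and 5.42 in the dark, 5.65 and 5.37 with H2O2, and 4.85 and 4.82 in light. Dark and H2O2 overlapped, and the light difference of -0.56 ± 0.14 (adjusted p = 0.00975) became 0.13 once the arrays were centred on the hybridisation controls, and it was not called without dark replicate 2 (0.0532). NET3B had 2.75 and 3.35 in the dark, 2.65 and 2.83 with H2O2, and 2.75 and 2.93 in light, overlapping and dim throughout. NET1C and NET2C were likewise dim in every group and not called.

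The comparison of light with H2O2 tests whether a gene's level under the 2 conditions differs. No dark array enters the difference itself. Its SE and p-value come from the fit of all arrays, so the spread between the dark arrays also sets them. In light 5 of the 39 genes were higher than with H2O2 and 10 lower, or 12.8% and 25.6%, against 17.4% and 22.0% of all probe sets (39.5% called in all). Of 15 IQD genes 4 were higher and 4 lower, of 10 NET genes 1 was higher and 2 lower, and of 14 TRM genes 4 were lower and 0 higher. At an unadjusted p under 0.05, 2 TRM genes were above H2O2 and 5 below, beside 20.1% and 26.1% of all probe sets, and TRM15 (0.41, adjusted p = 0.0446) was called higher with the gene span trend removed. The TRM median was -0.23, between -0.39 and -0.16 over the alternatives, against -0.06 over all probe sets. The NET median was 0.00, with either sign under the alternatives. Once the arrays were centred on the hybridisation controls 5 of the 39 were called (12.8%, beside 11.3% of all probe sets), namely iqd21, IQD22, IQD24, NET3A and TRM28.

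IQD24 and iqd21 were higher in light than with H2O2 by 2.61 ± 0.15 and 2.58 ± 0.13 (adjusted p = 1.99e-06 and 1.26e-06). NET1A at 0.93 ± 0.17 (0.00201), IQD31 at 0.62 ± 0.20 (0.0376) and iqd33 at 0.59 ± 0.15 (0.011) were also higher in light. Lowest in light was IQD22, at -2.001 ± 0.14 (adjusted p = 6.17e-06), followed by TRM28 at -1.57 ± 0.19 (0.000186). NET3A had -1.30 ± 0.22 (adjusted p = 0.00124), TRM18 had -1.23 ± 0.16 (0.000292) and IQD18 had -0.92 ± 0.14 (0.000638). For iqd32 the difference was -0.78 ± 0.22 (0.0194), for TRM21 -0.70 ± 0.13 (0.00268), for NET2D -0.68 ± 0.14 (0.00437), for IQD26 -0.66 ± 0.14 (0.00508) and for TRM19 -0.54 ± 0.18 (0.0418). Of the 10 genes called higher than dark under both conditions, iqd32, TRM19, IQD31 and iqd33 thus differed between the conditions, the former pair towards H2O2 and the latter pair towards light. IQD19, NET1B, NET1D and NET4B did not pass the test, with differences of -0.05, 0.07, -0.06 and 0.12. Their 95% intervals were -0.36 to 0.27, -0.42 to 0.56, -0.41 to 0.29 and -0.24 to 0.48. TRM20 and TRM26 had 0.27 ± 0.20 and -0.25 ± 0.13 and were not called. The dark arrays of iqd32, which also set its SE, spread most, with an SD of 0.54 against 0.03 with H2O2 and 0.03 in light. Without any 1 of the 4 light and H2O2 arrays its difference lay between -0.80 and -0.76, and its call ended. That of TRM19 ended under all 3 other scalings (0.0504 to 0.638), with the gene span trend removed (0.0686) and without H2O2 replicate 1 (0.123), H2O2 replicate 2 (0.174) or light replicate 1 (0.249), that of IQD31 without H2O2 replicate 2 (0.257) or light replicate 2 (0.21), and that of iqd33 without H2O2 replicate 1 (0.0878) or light replicate 1 (0.0681).

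**Figure D4:**
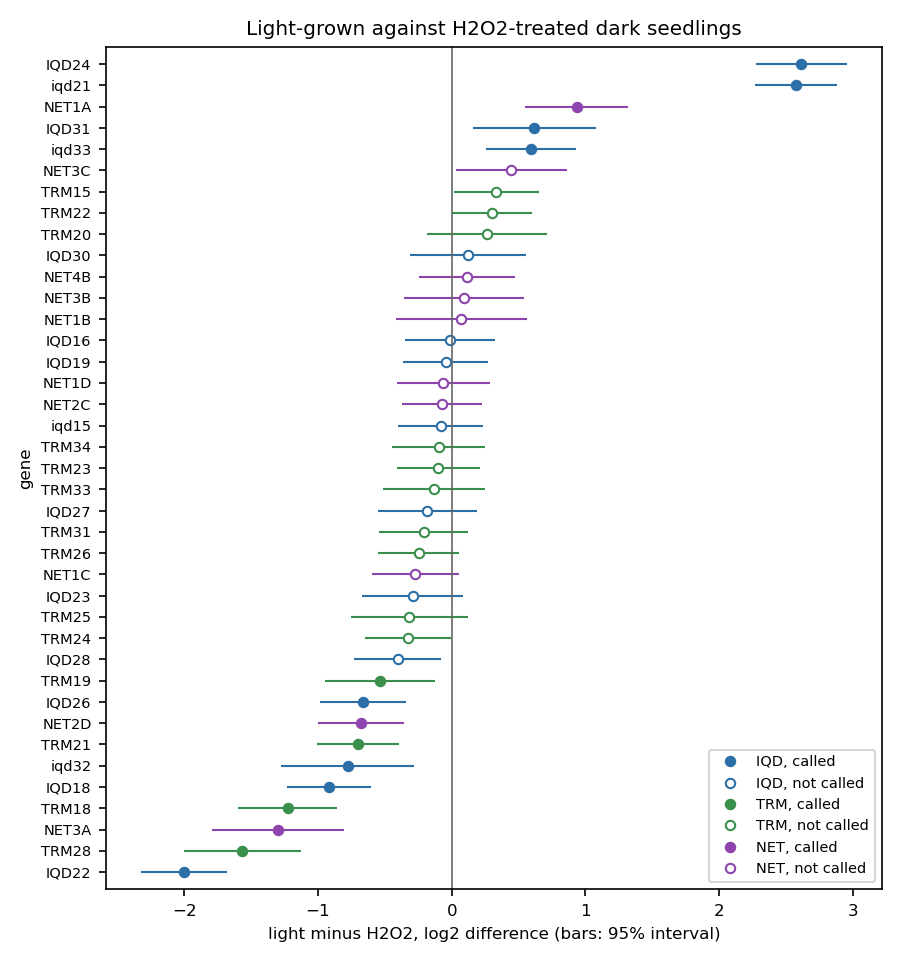
Log2 difference between light-grown and H2O2-treated dark seedlings for the 39 genes, ordered by the difference, with 95% intervals from the limma fit. Filled points are called: IQD24 and iqd21 at the top lie above 2.5, and IQD22 at the bottom lies at -2.001.

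Few other genes of the cytoskeleton could be set beside these families, since only genes named by a probe set with 1 gene in the annotation used here were looked up. Such a probe set names 5 of 9 listed beta-tubulin genes, 2 of 6 alpha-tubulin genes, 2 of 8 actin genes, 3 of 32 microtubule-associated protein genes, and 1 of 10 genes for TON1, TON2 and katanin. The calmodulin, actin regulator, NET partner, gamma-tubulin ring and cellulose synthase lists were not analysed here, as no such probe set names their genes. With H2O2 the beta-tubulin genes TUB1 and TUB5 rose by 0.72 ± 0.19 and 0.51 ± 0.14 (adjusted p = 0.0273 and 0.0317), and the other 3 were not called. Both calls ended when either dark array or the first H2O2 array was left out. ATMAP65-6, which encodes a protein of the family that bundles microtubules, rose by 1.24 ± 0.13 (0.000475), and AT3G23090, listed as WDL3, by 1.24 ± 0.22 (0.00511). Without H2O2 replicate 1 only 1 of these 2 was called. SPR1, a microtubule plus-end protein gene, had -0.24 ± 0.14. TON1B, the partner that TRM proteins recruit, had 0.53 ± 0.16 and missed the threshold at an adjusted p of 0.0502. The actin gene ACT11 had -0.40 ± 0.14 (0.0714), and TUA1, for an alpha-tubulin, had -0.23 ± 0.13 (0.262). In light TUA1 and TUB9 were lower at -0.98 ± 0.13 and -1.03 ± 0.14, SPR1 was lower at -0.46 ± 0.14, and TUB5 and ATMAP65-6 were higher at 0.68 ± 0.14 and 0.52 ± 0.13. With centring on the hybridisation controls none of these 3 genes was called lower, and SPR1 was not called lower without dark replicate 1, dark replicate 2 or light replicate 1 or with the gene span trend removed. ACT11 at -0.12 ± 0.14, TON1B at 0.12 ± 0.16 and AT3G23090 at 0.58 ± 0.22 (adjusted p = 0.0533) were not called in light. Without dim probe sets, or with the replicate block, 2 microtubule-associated protein genes were called higher in light. Against H2O2, light was lower for TUB9 at -1.12 ± 0.14, TUA1 at -0.75 ± 0.13, TUB1 at -0.74 ± 0.19, TUB6 at -0.66 ± 0.15, ATMAP65-6 at -0.72 ± 0.13 and AT3G23090 at -0.66 ± 0.22. Of these 3 beta-tubulin genes 1 was called without H2O2 replicate 1 and 2 without light replicate 2, and of the latter 2 genes 1 was called without H2O2 replicate 1, H2O2 replicate 2 or light replicate 2. No call was made for ACT11 (0.27 ± 0.14) or TON1B (-0.41 ± 0.16) there.

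Gene span, the length from a gene's start to its end in the TAIR10.1 table, moved with the H2O2 difference over all named genes. The rank correlation between span and difference was 0.27 over 13436 probe sets with H2O2 and 0.12 in light, given as a description since probe sets share the arrays. The 39 genes have a median span of 2828 bp against 2117 bp over all named probe sets, and 29 of them lie above the latter. Lower calls with H2O2 numbered 129 and 197 in the 2 shortest of 10 equal classes by span, and 42 and 32 in the 2 longest. With a smooth trend on span removed from each array, 10 of the 39 genes were higher with H2O2 and 0 lower, or 25.6% and 0%. Of the 13436 probe sets 9.33% were then higher and 7.84% lower. IQD18, TRM20 and TRM28 were the 3 no longer called (adjusted p = 0.107, 0.0742 and 0.0927). In light 12 were then higher and 8 lower, or 30.8% and 20.5%, beside 20.2% and 24% of the 13436.

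**Figure D5:**
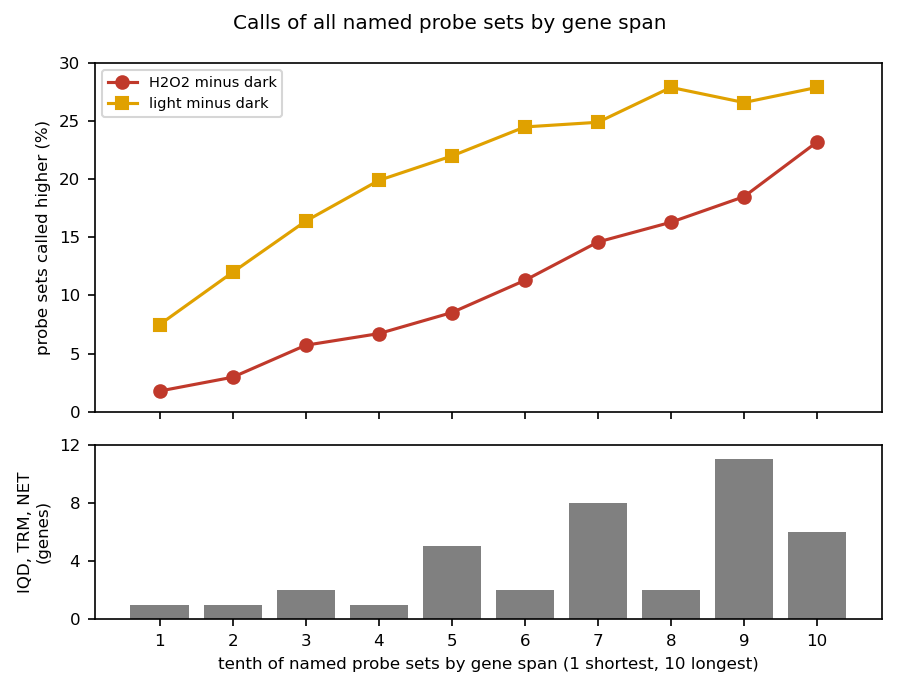
Upper plot: percent of named probe sets called higher than dark with H2O2 (circles) and in light (squares) in each of 10 equal classes by gene span. Lower plot: how many of the 39 IQD, TRM and NET genes fall in each class. The share with H2O2 goes from 1.78% to 23.2%, and 17 of the 39 genes lie in the 2 classes of longest span.

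Marker genes of other cell types and states also differed between the groups, and their part in the results above was not tested. The 3 genes so named of 9 seed genes rose with H2O2, M17 by 3.58 ± 0.58, PAP85 by 2.76 ± 0.41 and OLEO3 by 0.54 ± 0.14. Their mean log2 level was 4.64 and 5.02 on the dark arrays, 7.23 and 7.02 with H2O2, and 3.72 and 4.52 in light. Against dark only OLEO3 was lower in light, at -2.60 ± 0.14. M17 and PAP85, dim in dark and light, had 0.12 ± 0.58 and 0.35 ± 0.41 there and were not called. The 2 so named of 6 root hair genes fell with H2O2 and rose in light, with mean levels of 5.86 and 5.24 in the dark, 4.14 and 4.05 with H2O2, and 6.64 and 6.44 in light. The 7 photosynthesis genes were all higher in light, at mean levels of 12.56 and 12.52 against 9.79 and 9.77 in the dark and 10.23 and 10.06 with H2O2, where PRK and PSAN rose. Of 6 stomatal lineage genes FMA, SPCH and MUTE were so named, and FMA and SPCH were higher in light. The mean level of the 3 was 3.65 and 3.60 in the dark, 3.80 and 3.83 with H2O2, and 5.12 and 4.68 in light. Of 16 genes of dividing cells 2 were so named, and AUR2, an Aurora kinase gene, was higher in light by 1.06 ± 0.14, with -0.04 ± 0.14 with H2O2. Xylem and pollen markers were not analysed here, as no probe set with 1 gene names them.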

How the data were processed

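Total RNA, converted to biotin-labelled cRNA, was measured on 6 single-colour ATH1 arrays, per the labels, and groups and replicate numbers came from the sample titles. The authors deposited 1 table of log2 values from 2.22 to 14.23. The scale was inferred from that range and from RMA, which is named with limma in the submitters' processing notes. Its settings and a genome build were not stated. Arrays give no read depth, so their number limits the precision.

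After 64 control probe sets were set aside, limma 3.58.1 in R 4.3.3 fitted 22746 probe sets without a filter (2-sided, Benjamini-Hochberg), with 3 residual degrees of freedom and 5.84 from the prior. Names came from the platform annotation, updated through RefSeq (TAIR10.1), and 13513 probe sets name 1 gene. The steps were run on simulated data with known changes and 1 common spread for all probe sets. These had no array or span effects, so they are simpler than the real arrays. The alternatives were a dim filter, centring on array medians or on 18 hybridisation control probe sets, repeated quantile normalization, the 4 arrays compared alone, an intensity trend, removal of a span trend, the replicate block, and each array left out. No member has several probe sets, so another choice of probe set could not be tried.

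The members and gene lists were chosen with earlier results of these data known. All members are named. Values on all 6 arrays are given for up to 8 called differences of the largest size in each comparison and direction, for opposite calls against dark, and for each family's highest and lowest mean. Of each companion list the 3 largest called differences, or 1 value, are given. Values of IQD16, IQD23, IQD30, NET3C, TRM15, TRM26 and of companion genes beyond that rule were chosen after they were seen. The 2 replicates of a group are called biological by the submitters, with no statement on separate cultures. A p-value therefore sets a difference against the spread between these samples, moderated by the prior over all probe sets.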

Additional observations from a re-analysis of the deposited data

How the results depend on the processing

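With H2O2 no gene of the 3 families was called lower under any alternative, and calls held under every alternative that tested the gene for 5 of 13 genes with H2O2, 13 of 23 in light and 5 of 15 between light and H2O2. Without 1 array, 7 to 12 of the 39 were called with H2O2, and 2135 to 4949 of all probe sets (4656 with all arrays). Such fits called 0 to 2 beta-tubulin genes, 0 to 1 for TON1B and 1 to 2 microtubule-associated protein genes with H2O2, 1 to 3 of the latter in light, and, between light and H2O2, 1 to 3 beta-tubulin genes, 0 to 1 for TON1B and 1 to 2 microtubule-associated protein genes. Centring on the hybridisation controls gave 2379 calls with H2O2, 5261 in light and 2576 between light and H2O2, of which 15 in light and 5 between light and H2O2 were members. The medians of these controls also differed between replicates, most in dark (9.47 and 10.13) and light (8.68 and 9.54). This centring thus moved replicates against each other. In light it turned IQD18 to 0.23, IQD26 to 0.017, NET2D to 0.13 and TRM21 to 0.26, and none of these was called. The IQD, TRM and NET medians were then 1.13, 1.02 and 1.18 with H2O2, beside 0.76 over all probe sets. In light they were 0.84, 0.70 and 1.07, beside 0.63 over all probe sets. It left 1 beta-tubulin call with H2O2, 0 alpha-tubulin, 1 beta-tubulin and 1 microtubule-associated protein call in light, and 0 of each between light and H2O2. Of the calls over all probe sets it put 98.9% higher with H2O2 and 88.2% in light, against 60% and 48%. With H2O2 it called 0.114% of all probe sets lower, against 8.18% in the main fit, so 0 lower among the 39 genes says little there. Array medians put 39.3% higher with H2O2, shifted the median of all probe sets by -0.12 with H2O2 and -0.11 in light, and gave 1 beta-tubulin and 1 actin call with H2O2 and 2 alpha-tubulin calls in light, as did quantile normalization for the last (2). Over the 13436 probe sets with a span, removing the span trend gave 2308, 5938 and 4653 calls in the 3 comparisons, 1 beta-tubulin call with H2O2 and 1 microtubule-associated protein call in light; fewer probe sets were tested. Without dim probe sets the TRM and NET medians with H2O2 were 0.47 and 1.10, the IQD, TRM and NET medians in light 0.74, 0.35 and 0.74, and the TRM median between light and H2O2 -0.39, over fewer genes. TON1B was called with H2O2 (1) with that filter, with 4 arrays alone, with the intensity trend and with the replicate block. NET3B in light and IQD28 and TRM25 between light and H2O2 each passed the threshold under 1 alternative (adjusted p = 0.0482, 0.0365 and 0.0459), as did NET3C and TRM15 between light and H2O2 (0.0136 and 0.0446). Same-numbered deviations from the group means correlated at -0.03, 0.07 and 0.00 over all probe sets, which cannot exclude a pairing by replicate number. Replicate 1 had the smaller difference between 3-prime and 5-prime control signals in each group. A batch shared by number was not tested. The replicate block moved the calls over all probe sets to 4590, 10905 and 8972 from 4656, 10920 and 8981, and ended 1 member's call, that of TRM28 with H2O2. The cause of these changes was not tested. With 2 arrays a group and 14 of 39 genes dim in every group, small differences could not be resolved.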
